A study of Mus musculus with 4 samples.

Results

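DNA replication and S-phase genes encode the machinery that licenses origins, unwinds and copies DNA, and supplies its building blocks, and 38 of them were described in sorted mouse pancreatic β cells with mutant Roundabout (Robo) receptor genes and in control β cells. The 38 genes were chosen by symbol, as a list of known replication factors, from a table of 51912 genes, and each matched 1 row. All 38 passed the filter on low values (at least 10 counts in at least 2 libraries), as did 16517 genes in all.

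The libraries came from neonates at postnatal day 13. Cells were 2 libraries per genotype of islet cells sorted for mCherry, the nuclear reporter Rosa26-lsl-H2B-mCherry, which a Cre recombinase driven from the β cell maturation gene Ucn3 switches on. The Robo mutant libraries carried Robo1delta/delta with Robo2flx/flx, and the control libraries carried Robo1+/+ with Robo2+/+. Both genotypes were heterozygous for the reporter and for Ucn3-Cre. The Robo1 allele is labelled as deleted, so its loss is not limited to cells with Cre, whereas that of Robo2 depends on it. By design, cells that never switched on Ucn3-Cre carry no reporter and are outside the sort. Transcripts of other cell types were still present in the libraries, as given below. Whether libraries of 1 genotype stem from different animals is not labelled, and every p-value here rests on a spread that may be partly technical.

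Before a cell copies its DNA, the origin recognition complex, Cdc6 and Cdt1 load the MCM helicase onto origins. In S phase Cdc45 and the GINS complex activate that helicase, polymerases copy the strands, and the sliding clamp PCNA holds them on DNA. Many of these genes are transcribed under E2F factors when cyclin-dependent kinases inactivate the RB proteins. The genes of mitosis are switched on later in the cycle, many through a promoter element called the cell cycle homology region (CHR). Neonatal β cells of the mouse divide, and their division slows as they mature. In bulk RNA a smaller share of cells in S phase and less RNA per such cell cannot be told apart.

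An E2F motif was more frequent in the promoters of these genes than in those of all tested genes, a feature that the choice of genes did not use. RefSeq promoter windows (GRCm38.p6, 250 bases before to 50 after the start) were given for 30 of the 38 genes. The motif, any of TTTCCCGC, TTTCGCGC, TTTGCCGC and TTTGGCGC on either strand, was found in 13 of these 30 genes (43.3%), against 507 of 11346 tested genes with a window (4.47%). It was found in none (0) of the 30 mitosis genes with a window. The CHR letters TTTGAA, on either strand, showed the opposite pattern, with 4 of the 30 replication genes (13.3%), 22 of the 30 mitosis genes (73.3%) and 14.4% of tested genes. CCAAT, another motif searched on both strands, was found in 18 of the 30 replication genes, 23 of the 30 mitosis genes and 42.6% of tested genes. None of these letter strings contains another of them, though E2F matches on opposite strands can overlap, and E2F and CCAAT matches can share bases. A match of letters is a description and not evidence of binding. In the 100 bases before the start alone, the E2F letters were found in 4 of the 30 genes (13.3%). The comparison there is with all genes with a window, tested or not, of which 265 of 27025 (0.981%) held them. In the whole window 704 of these 27025 genes (2.605%) held them. The 13 genes were Mcm3, Mcm5, Mcm6, Mcm7, Orc1, Cdc6, Cdt1, Gins3, Pola1, Pold1, Rfc3, Lig1 and Uhrf1. No window was given for Mcm4, Gins1, Gins2, Gins4, Ccne2, Prim2, Pole and Rfc2.

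Stretches of 30 bases around matches are shown for helicase, licensing and clamp loader genes, because their levels are described in full below, and for the mitosis gene Hmmr as the contrasting motif. They read 5′ to 3′ on the gene's strand, with every whole match of the E2F letters, or for Hmmr of the CHR letters, in capitals. CCAAT matches are not marked. Overlapping matches on opposite strands form 1 capital run.
Mcm3 (chr1:20820275-20820304, minus strand): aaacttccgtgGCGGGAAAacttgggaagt
Mcm5 (chr8:75109347-75109376, plus strand): gccaagaacTTTCGCGCCAAAacgtccagc
Mcm6 (chr1:128359795-128359824, minus strand): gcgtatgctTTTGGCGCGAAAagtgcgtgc
Mcm7 (chr5:138171849-138171878, minus strand): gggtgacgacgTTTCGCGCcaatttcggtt
Orc1 (chr4:108579416-108579445, plus strand): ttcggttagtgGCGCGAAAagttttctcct
Cdc6 (chr11:98908002-98908031, plus strand): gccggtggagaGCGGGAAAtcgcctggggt
Cdt1 (chr8:122568035-122568064, plus strand): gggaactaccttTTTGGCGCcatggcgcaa
Rfc3 (chr5:151651200-151651229, minus strand): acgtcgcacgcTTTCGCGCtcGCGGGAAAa
Hmmr, CHR (chr11:40733412-40733441, minus strand): agttgaggtaaaTTTGAAttcaggcgagct

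The replication genes as a group showed no common direction between the genotypes. Of the 38 genes 17 were lower and 21 higher in Robo mutant cells, with a median log2 change of 0.056, while 51.3% of all tested genes were lower, with a median of -0.013. Their summed level was 856 and 667 CPM (counts scaled to library size, with TMM factors) in Robo mutant 1 and 2, against 719.6 and 801 CPM in control 1 and 2. The mutant libraries thus lay on either side of both controls, and the sum did not separate the genotypes. With 2 libraries against 2 an exact permutation test cannot give a two-sided p below 0.333.

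By edgeR's quasi-likelihood test with Benjamini-Hochberg adjustment over all genes, 0 of the 38 had an adjusted p under 0.05, as did 0 of 16517 genes (0%). At an unadjusted p under 0.05 there were 2 of the 38 on the lower side (Mcm3 and Mcm7), against 4.21% of all genes, and 0 on the higher side, against 1.99%. DESeq2 called 0 of the 38, against 0.605% of genes called lower and 0.309% called higher. The missing calls do not show equal levels. The 95% interval of the log2 change stayed within 1 unit either way for 11 of the 38 genes and reached further for 27. The targeted genes were lower in both mutant libraries. Robo1 stood at 22.3 and 21.02 CPM in Robo mutant cells, against 48.5 and 104 CPM in control cells, and Robo2 at 32.7 and 25.6 CPM, against 75.3 and 118 CPM. Neither passed in edgeR (adjusted p = 0.680 each), whereas DESeq2 called both. A gene-level count includes exons outside a deleted part.

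**Figure D1:**
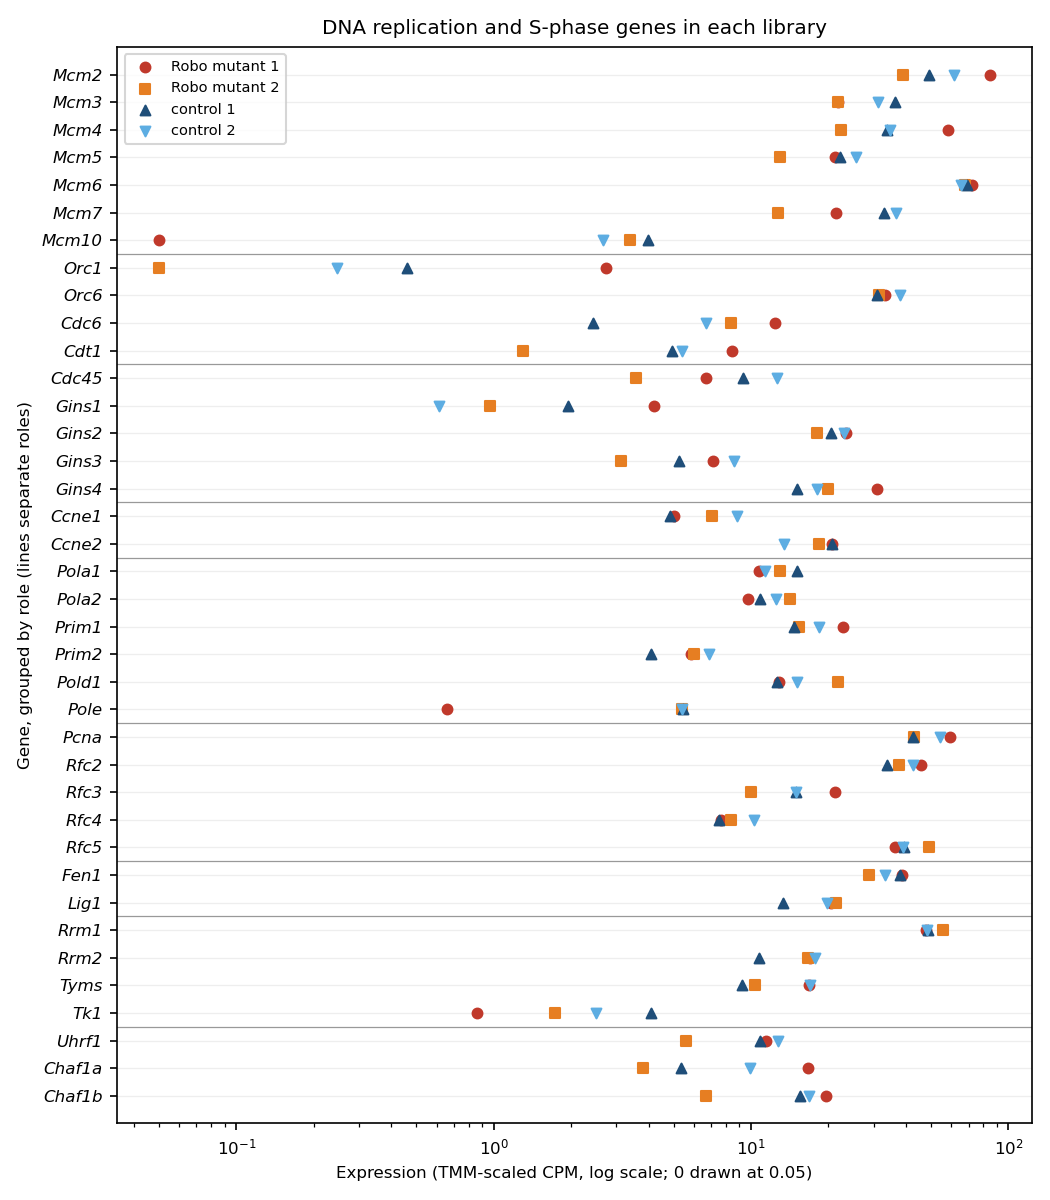
Expression of the 38 genes in each library, as TMM-scaled CPM on a log axis, grouped by role. In most genes the 2 Robo mutant libraries (circles and squares) do not stand together on 1 side of the 2 control libraries (triangles), and Mcm10 and Orc1 are each at 0 in 1 mutant library.

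Among these genes the mutant libraries lay further apart than the control libraries did. Robo mutant 1 was above Robo mutant 2 in 25 of the 38 genes, against 49.2% of all tested genes. In 9 of the 38, Robo mutant 1 lay above both controls and Robo mutant 2 below both, against 13.1% of genes. The opposite order was seen in 3 of the 38, against 12.8%. In 5 of the 38 genes each mutant library was under both controls (Mcm3, Mcm5, Mcm7, Cdc45 and Tk1), against 20.4% of genes, and in 3 each was above both (Cdc6, Gins4 and Lig1), against 16.1%. The median absolute log2 ratio between the mutant libraries was 0.60 for the 38 genes, and between the control libraries it was 0.32. For the 11169 tested genes within the same range of mean counts it was 0.48 between mutant and 0.27 between control libraries. These counts were chosen after the values were seen and were not tested.

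Other cells' transcripts differed between the same libraries. The 16 acinar (digestive enzyme cell) markers summed to 2610.02 and 48417 CPM in Robo mutant 1 and 2, against 5360.19 and 620.8 CPM in control 1 and 2. The most abundant, Cel, stood at 705.5 and 14672 CPM in Robo mutant cells and 1628 and 114 CPM in control cells. The 10 stromal and pericyte markers summed to 1097 and 14.7 CPM in Robo mutant cells, against 2418.0 and 704.6 CPM in control cells. Their most abundant, Col3a1, stood at 615 and 8.93 CPM in Robo mutant cells and 1338 and 426 CPM in control cells, and 4 of the 10, including Col1a1 and Pdgfrb, were at 0 in Robo mutant 2. Immune markers summed to 67.6 and 64.3 CPM in Robo mutant cells, against 52.1 and 24.5 CPM in control cells, and endothelial markers to at most 20.4 CPM in any library. Alpha cell markers summed to 19477 and 24386 CPM in Robo mutant cells, against 24006 and 12076 CPM in control cells. Delta cell markers summed to 2689.75 and 1494 CPM in Robo mutant cells, against 1272 and 1210.11 CPM in control cells. This sum, like that of the immune markers, was higher in both mutant libraries. In 3 of the 6 delta cell markers each mutant library was above both controls, against 16.1% of all tested genes. In 1 each was below both, against 20.4%. The part of these other cell types in the gap between the mutant libraries was not tested. The β cell genes Ins1 and Ins2 were abundant in every library, with Ins2 at 149728 and 99747 CPM in Robo mutant cells and 153155 and 125763 CPM in control cells. Total counts ran from 38886129 to 49593712 per library, so 3 counts, the limit that a count of 0 allows, are 0.0600 to 0.0736 CPM.

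**Figure D2:**
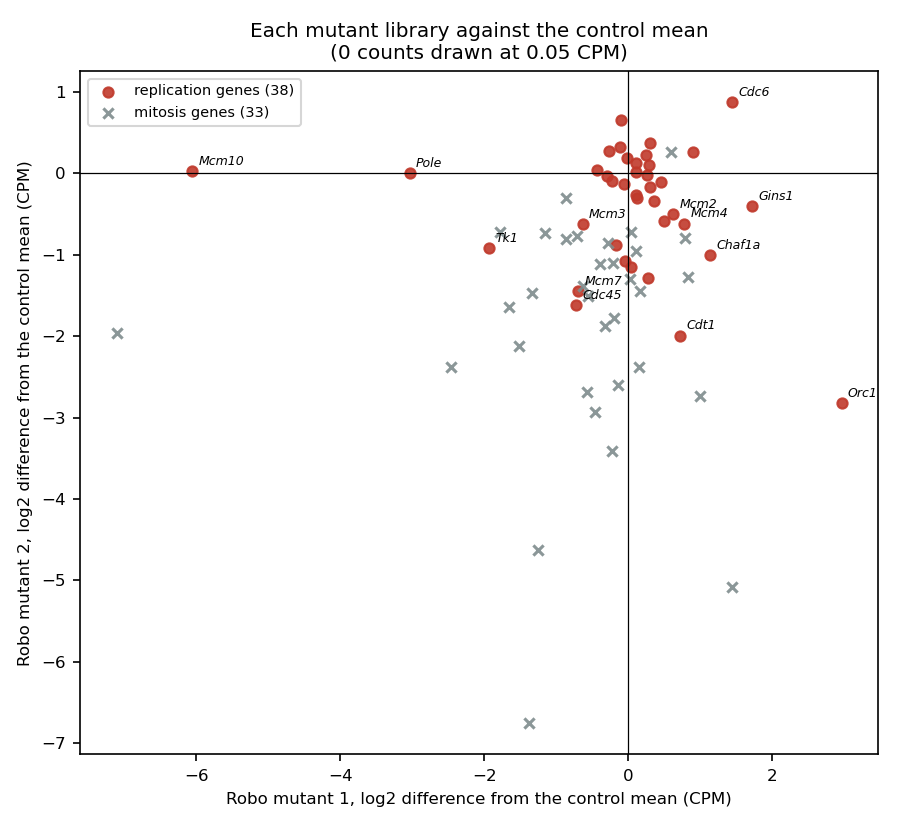
Each gene's log2 difference from the control mean in Robo mutant 1 (horizontal) and Robo mutant 2 (vertical), for 38 replication genes and 33 mitosis genes. Replication genes spread around 0, with Mcm2, Mcm4, Cdt1, Chaf1a and Orc1 to the right of and below it, while most mitosis genes lie below 0 in Robo mutant 2.

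The MCM helicase subunits, which form the hexamer that unwinds DNA at the fork, had values on both sides of the controls. Mcm3 stood at 21.7 and 21.8 CPM in Robo mutant cells, against 36.2 and 31.1 CPM in control cells. Mcm7 stood at 21.5 and 12.8 CPM in Robo mutant cells, against 32.8 and 36.7 CPM in control cells. In both genes the groups did not overlap. Mcm3 had a log2 change of -0.63 ± 0.18 (SE, n = 2 each), a 1.55-fold lower level, and edgeR gave an unadjusted p of 0.0218 and an adjusted p of 0.680. That of Mcm7 was -1.02 ± 0.31 (SE, n = 2 each), a 2.03-fold lower level, with an unadjusted p of 0.0251 and an adjusted p of 0.692 in edgeR. Mcm3 (chromosome 1, 20802968 to 20820312) and Mcm7 (chromosome 5, 138164583 to 138172422, both minus strand, GRCm38) kept a negative change when each library was left out in turn. Groups that do not overlap must give that result, so it adds no support. Exons of Mcm7 overlap those of Ap4m1 on the other strand over 7.25% of their length. A processed pseudogene, Gm5487, is 97.7% identical over 2157 bases of the Mcm7 transcript, so part of the Mcm7 reads may be uncertain. No counts were given for Gm5487, so a sharing of reads with it could not be inspected.

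Mcm5 was also lower in both, at 21.2 and 13.0 CPM in Robo mutant cells, against 22.2 and 25.6 CPM in control cells. Only a small step separated Robo mutant 1 from control 1. Mcm2 and Mcm4 showed the split between the mutant libraries. Mcm2 stood at 85.2 and 39.0 CPM in Robo mutant cells, against 49.1 and 61.3 CPM in control cells, and Mcm4 at 58.5 and 22.3 CPM, against 33.8 and 34.7 CPM. Their log2 changes, 0.17 ± 0.41 and 0.24 ± 0.48 (SE, n = 2 each), were smaller than their errors, and both became negative without Robo mutant 1 (-0.50 and -0.62).

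Mcm6 was the steadiest subunit, at 72.2 and 67.8 CPM in Robo mutant cells and 68.8 and 65.5 CPM in control cells. Its log2 change was 0.060 with a 95% interval from -0.27 to 0.39. Mcm10, which helps the helicase to fire and is not part of the hexamer, had 0 and 154 counts in Robo mutant 1 and 2 and 191 and 108 counts in control 1 and 2. Robo mutant 2 lay between the controls, so its log2 change of -0.97 ± 2.17 (SE, n = 2 each) rests on 1 library at 0.

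Among the 4 origin licensing genes, Orc1 and Cdt1 differed widely between the mutant libraries, and Orc6 did not. Orc1, the large subunit of the origin recognition complex, had 137 and 0 counts in Robo mutant 1 and 2, against 22 and 10 counts in control 1 and 2. Orc1 was thus both highest and lowest in the mutant group, and its log2 change of 1.95 had a standard error of 2.39. Cdt1, the loading factor that is destroyed once S phase begins, stood at 8.46 and 1.298 CPM in Robo mutant cells, against 4.95 and 5.37 CPM in control cells. The mutant libraries differed 6.52-fold in Cdt1, and its log2 change was -0.08 ± 0.94 (SE, n = 2 each).

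Cdc6, the loader that recruits the helicase together with Cdt1, was higher in both mutant libraries, at 12.3 and 8.34 CPM, against 2.42 and 6.67 CPM in control cells. The groups did not overlap, but the controls themselves differed, and the log2 change of 1.19 ± 0.62 (SE, n = 2 each) did not pass in edgeR (adjusted p = 0.917). Orc6, the smallest subunit of the origin recognition complex, stood at 33.1 and 31.5 CPM in Robo mutant cells and 30.8 and 37.99 CPM in control cells, and the groups overlapped. The exons of Orc6 overlap those of Vps35 on the other strand over 6.93% of their length, and those of Orc1 overlap Gm12743 over 10.8%.

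Helicase activators lay on both sides. Cdc45, which joins the MCM ring to make the active helicase, stood at 6.66 and 3.58 CPM in Robo mutant cells, against 9.32 and 12.6 CPM in control cells. Both mutant libraries were below both controls, 2.14-fold lower on average, with a log2 change of -1.10, a standard error of 0.47 and an adjusted p of 0.864 in edgeR. Gins4, a GINS subunit, was higher in both mutant libraries, at 30.7 and 19.9 CPM, against 15.0 and 18.0 CPM in control cells (log2 change 0.62 ± 0.30, SE, n = 2 each; edgeR adjusted p = 0.898).

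Gins1 stood at 4.201 and 0.968 CPM in Robo mutant cells, against 1.94 and 0.613 CPM in control cells, and both genotypes varied several-fold. Gins2 stood at 23.4 and 18.1 CPM in Robo mutant cells and 20.4 and 23.0 CPM in control cells. However, 67.3% of its exon bases overlap Gse1 on the other strand. Without strand information the division of those reads is an uncertain estimate. Gins3 stood at 7.12 and 3.12 CPM in Robo mutant cells and 5.24 and 8.61 CPM in control cells. Only Robo mutant 2 was below both controls in Gins2 and Gins3.

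The E cyclins, which activate Cdk2 at entry into S phase, overlapped between genotypes. Ccne1 stood at 5.04 and 7.04 CPM in Robo mutant cells, against 4.83 and 8.83 CPM in control cells, and Ccne2 at 20.7 and 18.4 CPM, against 20.7 and 13.4 CPM. Their log2 changes were -0.18 ± 0.49 and 0.20 ± 0.30 (SE, n = 2 each). Part of Ccne2, 17.4% of its exon bases, overlaps Ints8 on the other strand.

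The polymerase genes were the group in which Robo mutant 2 was mostly the higher mutant library. Pola1, the catalytic subunit of polymerase α, stood at 10.7 and 13.0 CPM in Robo mutant cells and 15.1 and 11.3 CPM in control cells. Pola2, its regulatory subunit, stood at 9.74 and 14.2 CPM, against 10.9 and 12.5 CPM. Pold1, the catalytic subunit of polymerase δ, stood at 12.8 and 21.8 CPM in Robo mutant cells, against 12.6 and 15.1 CPM in control cells. Robo mutant 1 lay between the controls in Pold1, and Robo mutant 2 above them. Pole, the catalytic subunit of polymerase ε, had 33 and 246 counts in Robo mutant cells, against 260 and 219 counts in control cells. Its log2 change of -0.83 (standard error 1.05) thus came from Robo mutant 1 alone, and without that library it was 0.0028.

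The primase genes lay within or close to the controls. Prim1, the catalytic subunit, stood at 22.7 and 15.3 CPM in Robo mutant cells, against 14.7 and 18.4 CPM in control cells. Prim2, the large subunit, stood at 5.86 and 6.004 CPM in Robo mutant cells, against 4.09 and 6.85 CPM in control cells. The 5 genes of polymerases α and δ and primase had log2 changes from -0.16 (Pola1) to 0.33 (Pold1), none larger than its standard error.

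Pcna, the sliding clamp, was the member with the highest level per transcript length. Counts per kilobase of the longest transcript, scaled to an equal sum in each library as in TPM, averaged 60.3 for Pcna over the 4 libraries, against a median of 10.1 for the 38 genes and 7.12 for the 16228 protein-coding genes above 0 in any library. Orc6 (41.9), Mcm2 (30.9) and Mcm6 (28.9) followed on this scale, and Orc1 (0.515) and Mcm10 (0.945) were lowest. On lengths of all exons joined, Pcna was again first and Orc1 last, and the ranks of the 38 genes correlated at 0.968 with the first (Spearman, across genes).

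In TMM-scaled CPM Pcna stood at 59.3 and 43.1 in Robo mutant cells and 42.7 and 54.0 in control cells, a log2 change of 0.082 ± 0.23 (SE, n = 2 each). The groups overlapped. A processed pseudogene on chromosome 19, Pcna-ps2 (9283380 to 9284160, GRCm38), is 99.2% identical to Pcna over 781 bases, so reads can be divided between them. Pcna-ps2 had 33 and 20 counts in Robo mutant cells, against 323 and 275 counts in control cells, a log2 change of -3.61 ± 0.60. (SE, n = 2 each) It did not pass in edgeR (adjusted p = 0.680) and was called by DESeq2 (adjusted p = 0.000206). It was named after its values were seen. With its reads added to those of Pcna, the log2 change of Pcna was -0.09, of the opposite sign (edgeR, adjusted p = 0.9999).

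The 4 clamp loader genes among the 38, whose products open PCNA and place it on DNA, had small log2 changes on average. Rfc2 stood at 45.6 and 37.7 CPM in Robo mutant cells and 33.6 and 42.6 CPM in control cells. Rfc5 stood at 36.3 and 49.1 CPM, against 39.4 and 39.0 CPM, and Rfc4 at 7.62 and 8.36 CPM, against 7.50 and 10.3 CPM. Their groups overlapped, or lay on either side of the controls in Rfc5. Rfc3 showed the split seen in Mcm2 and Mcm4, at 21.1 and 10.0 CPM in Robo mutant cells, against 15.0 and 14.9 CPM in control cells. These 4 clamp loader genes had log2 changes from -0.16 to 0.13. Rfc1, the large clamp loader subunit, is outside the list, and its larger change is given below. Exons on the other strand overlap 15.1% of Rfc2 (Lat2), 12.7% of Rfc4 (Eif4a2) and 10.7% of Rfc5 (Wsb2).

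Both genes that finish Okazaki fragments, the short pieces of the lagging strand, had small average differences. Fen1, the flap nuclease, stood at 38.5 and 28.8 CPM in Robo mutant cells and 37.8 and 33.1 CPM in control cells, and 78.8% of its exon bases overlap the antisense gene Gm10143. Lig1, the DNA ligase that seals the fragments, stood at 20.4 and 21.4 CPM in Robo mutant cells, against 13.3 and 19.8 CPM in control cells. The groups of Lig1 did not overlap, but control 2 was within a small step of the mutant libraries, and the log2 change of 0.34 had a standard error of 0.28.

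Among nucleotide supply genes Tk1 had the largest difference. Rrm1, the large subunit of ribonucleotide reductase, stood at 47.7 and 55.7 CPM in Robo mutant cells and 48.8 and 48.4 CPM in control cells. Rrm2, its S-phase subunit, stood at 16.9 and 16.6 CPM, against 10.8 and 17.7 CPM, and Tyms, thymidylate synthase, at 16.8 and 10.3 CPM, against 9.21 and 17.0 CPM. Control 1 was the lowest library in both Rrm2 and Tyms. Tk1, the cytosolic thymidine kinase, had 43 and 79 counts in Robo mutant cells, against 195 and 102 counts in control cells. Both mutant libraries of Tk1 were below both controls, 2.53-fold lower on average, with a log2 change of -1.34, a standard error of 0.76 and an adjusted p of 0.922 in edgeR.

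Chromatin genes of the fork also differed between Robo mutant 1 and Robo mutant 2. Chaf1a and Chaf1b encode subunits of the chromatin assembly factor that loads histones behind the fork. Chaf1a stood at 16.7 and 3.80 CPM in Robo mutant cells, against 5.33 and 9.91 CPM in control cells, and 52.5% of its exon bases overlap Ubxn6 on the other strand. Chaf1b stood at 19.6 and 6.66 CPM in Robo mutant cells, against 15.6 and 16.9 CPM in control cells. In both genes the mutant libraries enclosed the controls. Uhrf1, which recruits the DNA methyltransferase Dnmt1 to new DNA, stood at 11.4 and 5.59 CPM in Robo mutant cells and 10.8 and 12.7 CPM in control cells. Summed, the 3 genes were at 47.8 and 16.1 CPM in Robo mutant 1 and 2, against 31.7 and 39.5 CPM in control 1 and 2.

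**Figure D3:**
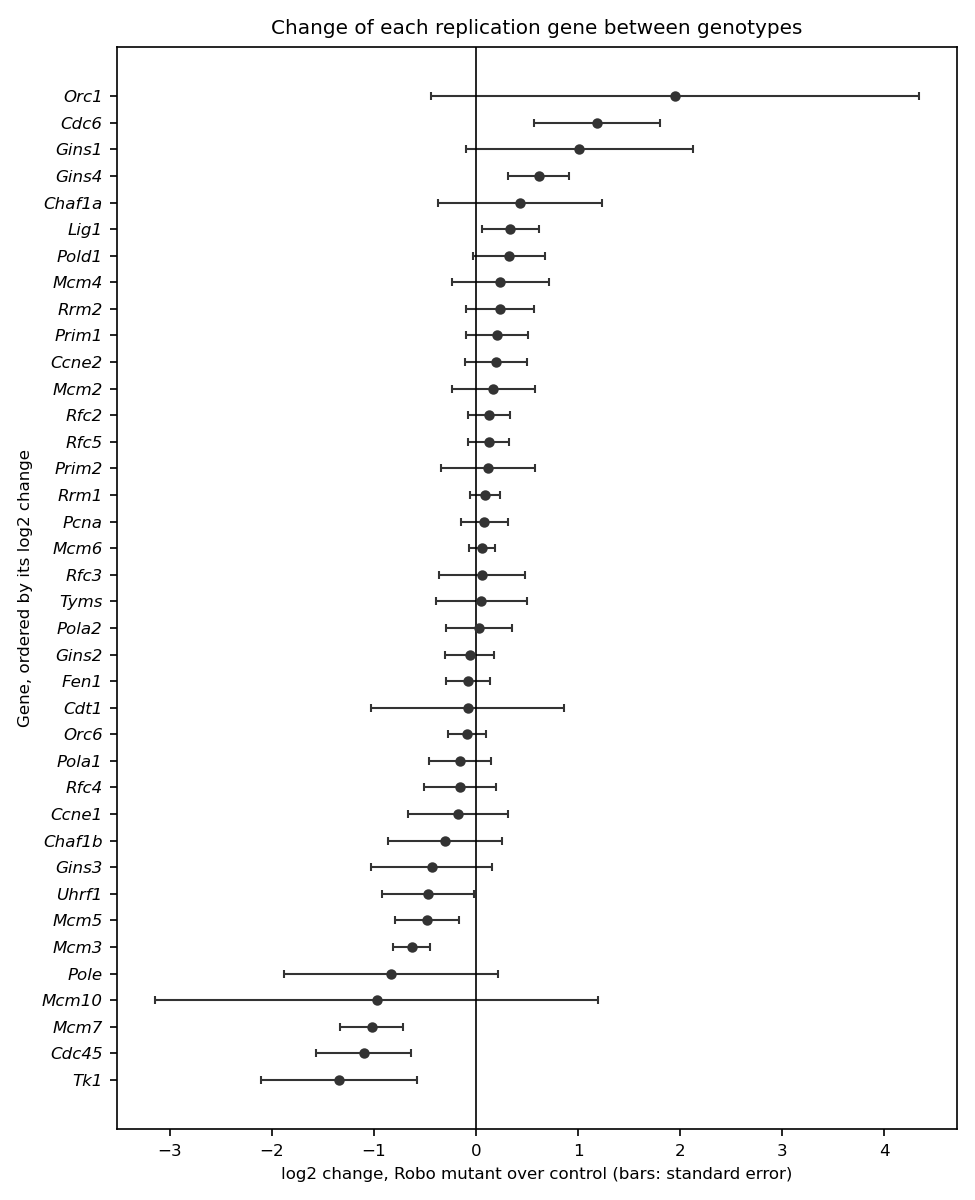
Log2 change of each of the 38 genes, Robo mutant over control, with its standard error, ordered by size. 18 of the 38 changes are smaller than 0.2 either way, and the errors are widest for Orc1 and Mcm10, each at 0 in 1 mutant library.

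Mitosis genes, which act after S phase, lay mostly lower in Robo mutant cells. Of 33 tested mitosis genes 28 were lower, against 51.3% of all tested genes, with a median log2 change of -0.83. In 17 of the 33 each mutant library was under both controls, against 20.4% of genes, and in 1 each was above both, against 16.1%. In 6 of the 33 Robo mutant 1 lay above both controls and Robo mutant 2 below both, against 13.1% of genes. Their summed level was 338 and 163 CPM in Robo mutant 1 and 2, against 373 and 397 CPM in control 1 and 2. The genes named next are those of the list with the smallest p. Ccnb1, the mitotic cyclin B1, stood at 2.46 and 2.62 CPM in Robo mutant cells and 16.4 and 10.7 CPM in control cells. Hmmr, a spindle protein, stood at 3.72 and 3.76 CPM, against 12.8 and 10.6 CPM. Cenpe, a kinetochore motor, stood at 3.02 and 2.77 CPM, against 7.63 and 7.71 CPM. In edgeR 0 of the 33 passed, 4 had an unadjusted p under 0.05 on the lower side, against 4.21% of genes, and DESeq2 called 2 lower, Ccnb1 and Hmmr, against 0.605%. Median log2 differences from the control mean were -0.40 and -1.45 in Robo mutant 1 and 2 for mitosis genes, and 0.11 and -0.15 for replication genes. Without Robo mutant 1 the mitosis median was -1.47, and without Robo mutant 2 it was -0.40. Robo mutant 2 was also the library with the highest acinar and lowest stromal marker sums, whose part in the mitosis values was not tested. The difference between the lists was not tested. All lists were chosen with earlier results of these data known, so the shares over all genes are a description and no test.

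**Figure D4:**
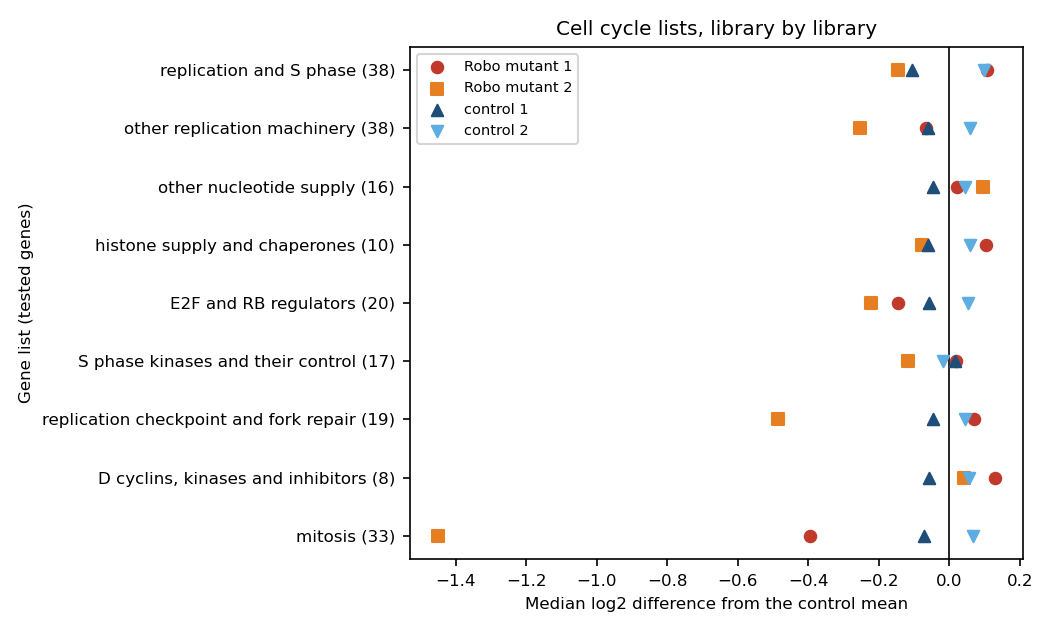
Median log2 difference from the control mean (0.05 CPM added) in each library for the replication genes and 8 other cell cycle lists, with the number of tested genes in brackets. The mitosis list is the one in which both mutant libraries fall well to the left of the controls, and in the replication list the mutant libraries are at 0.11 and -0.15.

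Of 38 further replication factors tested, 26 were lower, against 51.3% of all tested genes, with a median log2 change of -0.18. In 10 of them each mutant library was under both controls, against 20.4% of genes. Without Robo mutant 2 the number lower was 21 and the median -0.064. Of the 3 with the smallest p, Dnmt1, the maintenance DNA methyltransferase, stood at 45.0 and 43.7 CPM in Robo mutant cells, against 59.6 and 58.7 CPM in control cells (log2 change -0.41 ± 0.13, SE, n = 2 each). Pclaf, a PCNA-binding factor, stood at 2.12 and 2.42 CPM, against 5.33 and 8.10 CPM (log2 change -1.56 ± 0.50, SE, n = 2 each). Rfc1, the large clamp loader subunit, had a log2 change of -0.50. The groups of all 3 did not overlap, and none passed in edgeR (adjusted p from 0.728 for Dnmt1 to 0.888 for Rfc1).

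Genes that control S phase entry included Cdkn1a, which DESeq2 called higher. Of 17 tested S-phase kinase and control genes 10 were lower and 7 higher, while 51.3% of all tested genes were lower. Their median was -0.033 (log2), but 0.020 without Robo mutant 2 and 0.15 without control 1. Cdkn1a, the kinase inhibitor p21, which also binds PCNA, stood at 38.9 and 64.5 CPM in Robo mutant cells, against 20.7 and 18.4 CPM in control cells. Cdkn1a had a log2 change of 1.40 ± 0.30 (SE, n = 2 each), which DESeq2 called (adjusted p = 0.00893) and edgeR did not (adjusted p = 0.680). Cdc25a, the phosphatase that activates Cdk2, was lower in both mutant libraries (log2 change -0.53), and Cdk1, the mitotic kinase, had a log2 change of -1.20. Neither passed in edgeR or DESeq2.

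E2F and RB family genes were lower in 14 of 20 cases, against 51.3% of all genes, with a median log2 change of -0.17. In 6 of the 20 each mutant library was under both controls, against 20.4% of genes, and in 0 each was above both, against 16.1%. E2f1, the activator E2F, stood at 28.5 and 23.9 CPM in Robo mutant cells and 33.8 and 36.4 CPM in control cells. Lin9, of the MuvB complex that binds the CHR, had a log2 change of -0.93, and E2f5 one of -0.58. Among 8 tested D cyclin, kinase and inhibitor genes 3 were lower, against 51.3% of all genes, and 1 without Robo mutant 2. Log2 changes were 1.40 for Cdk6, 0.37 for Ccnd3 and -1.05 for Cdkn2c. None of these genes passed in edgeR or DESeq2.

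Nucleotide enzymes outside the 38 were higher in 12 of 16 cases and lower in 4, while 51.3% of all tested genes were lower. Their median log2 change was 0.13, but 8 of 16 were lower without Robo mutant 2 (median 0.022). Rrm2b, the p53-dependent reductase subunit, stood at 49.96 and 47.7 CPM in Robo mutant cells and 33.3 and 39.2 CPM in control cells. Dck, deoxycytidine kinase, had a log2 change of -0.86 and Shmt1 one of 1.12. Checkpoint and fork repair genes were lower in 11 of 19 cases (median -0.10), against 51.3% of all tested genes. Their median turned positive without control 2 (0.26), without Robo mutant 2 (0.075) and with a mean of at least 100 counts (0.24), and was -0.51 without Robo mutant 1. Among them were Atr, the checkpoint kinase, at 0.54, Rad17 at -0.62 and Brca2 at -1.04 in log2 change. Histone supply genes were lower in 3 of 10 cases, against 51.3% of all tested genes (median 0.068, and -0.075 with 6 lower without Robo mutant 1). Among them Npat, the activator of histone gene transcription, was at -0.56 and the histone chaperone gene Rbbp4 at -0.47, while Cdan1 was at 0.38. The groups of Rrm2b did not overlap, and no gene of these 3 lists passed in edgeR or DESeq2.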

How the data were processed

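RNA was amplified with SMART-Seq v4 and tagmented with Nextera XT, per the labels' protocols, a chemistry that keeps no strand. Per the submitters' processing notes RSEM 1.3.0, STAR 2.5.3a, edgeR 3.16.5 and bcl2fastq 2.20.0.422 were used with GRCm38, and neither their settings nor the gene models are known here. The deposited table holds the authors' estimated counts per gene in whole numbers. Its name calls them normalized, but totals differ, and they were analysed as RSEM's expected counts. TMM factors also differed between libraries, but rescaling by another factor cannot be told from the values, and the depth is then approximate.

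Values were rounded, genes reaching 10 counts in 2 or more libraries kept, and TMM and glmQLFTest applied in edgeR 4.0.16 (R 4.3.3), two-sided, Robo mutant against control with no covariate, at an adjusted p of 0.05. Standard errors are the absolute log2 change over the root of F. DESeq2 1.42.0 and limma 3.58.1 were alternatives. The procedure was run on simulated data with planted changes larger than that of any member. That run does not show how well smaller changes are found. Limits of 3 counts cover counting error only.

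GENCODE M21 (GRCm38) matched 51719 of 51912 identifiers and gave positions, lengths and overlaps; copies were sought with BLAST 2.17.0 (at least 95% identity over 200 bases). The 38 members and all lists were chosen with earlier results of these data known. Every member is named, with the 3 genes of smallest p per other cell cycle list and the leading gene of marker lists with large differences.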

Additional observations from a re-analysis of the deposited data

How the results depend on the processing

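The settings tried were other scalings (RLE, totals only, quantile), DESeq2, limma, no filter or a mean of at least 100 counts, and each library left out, where a lone library is assumed to vary like the other genotype. No member was called under any of them. Genes called over the whole table numbered 151 with DESeq2 and 0 to 1 with a library left out, the 1 being Gm8797 without Robo mutant 2, named because it was the call. DESeq2 called Robo1 (log2 change -1.80) and Robo2 (-1.71). The median log2 change of the members ran from -0.14 (without Robo mutant 1, 24 of 38 lower) to 0.11 (without Robo mutant 2, 16 lower). It was also negative without control 1 (-0.071, 21 lower), with scaling by totals (-0.0025, 19 lower) and with limma trend (-0.015, 19 lower), and the number lower was smallest, 14, without control 2. Without Gins2, Fen1 and Chaf1a, an alternative chosen after seeing the data, 15 were lower. Scaling by totals gave Pola2 -0.038 and Tyms -0.0084, quantile normalization Rfc3 -0.00018, limma Rfc3 -0.039 and Orc1 -0.55, and the reads of Pcna-ps2 Pcna -0.091, each of the opposite sign; the cause was not tested.

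With a library left out 10 members kept their sign and 28 did not; the log2 change of these ran from lowest to highest over -0.55 to 0.33 (Ccne1), -0.082 to 0.54 (Ccne2), -1.99 to 0.71 (Cdt1), -0.9995 to 1.14 (Chaf1a), -1.28 to 0.28 (Chaf1b), -0.30 to 0.12 (Fen1), -0.40 to 2.07 (Gins1), -0.26 to 0.11 (Gins2), -1.15 to 0.042 (Gins3), -10.26 to 0.029 (Mcm10), -0.50 to 0.63 (Mcm2), -0.62 to 0.77 (Mcm4), -6.99 to 2.95 (Orc1), -0.23 to 0.072 (Orc6), -0.17 to 0.30 (Pcna), -0.35 to 0.072 (Pola1), -0.26 to 0.28 (Pola2), -0.11 to 0.66 (Pold1), -3.03 to 0.0028 (Pole), -0.11 to 0.46 (Prim1), -0.21 to 0.54 (Prim2), -0.031 to 0.31 (Rfc2), -0.58 to 0.50 (Rfc3), -0.37 to 0.093 (Rfc4), -0.11 to 0.33 (Rfc5), -0.024 to 0.20 (Rrm1), -0.079 to 0.64 (Rrm2), -0.34 to 0.56 (Tyms). The cause was not tested. Genes whose groups do not overlap must keep their sign when a library is left out. No paired analysis was possible because the labels give no replicate number that the genotypes share. With 2 libraries per genotype, low-count genes such as Orc1, Mcm10 and Gins1 had the widest errors.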

Other observations

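In 7 of the 38 replication genes the annotated start lies within 1000 bases of the start of a protein-coding gene that runs the other way, or the 2 starts overlap by under 200 bases (18.4%, against 7.91% of 21870 protein-coding genes in the table). These pairs are Mcm4 with Prkdc, the gene of a DNA repair kinase, at 466 bases, Orc1 with Prpf38a at 87 bases, Gins1 with Abhd12 at 659 bases, Pole with Pxmp2 at 120 bases, and Orc6 with Vps35, Fen1 with Tmem258 and Tk1 with Afmid, which overlap (GRCm38). The pairs were described after the annotation was read and their levels were not compared. All 38 genes passed the filter on low values, whereas the 21870 include genes at 0 in every library (16228 protein-coding genes were above 0 in any). The share among expressed genes alone was not computed.

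Robo mutant 1 was the highest of the 4 libraries in 17 of the 38 replication genes, against 27.5% of all tested genes, and Robo mutant 2 the lowest in 14, against 31.0%. Robo mutant 1 was highest in 7 and Robo mutant 2 lowest in 25 of the 33 mitosis genes. Control 1 was lowest in 13 of the replication genes and in 0 of the mitosis genes, against 19.3% of all tested genes.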
